A study of Mus musculus with 6 samples.

Results

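The HoxD cluster is an array of homeobox genes on mouse chromosome 2, and its contacts were taken as every listed chromatin interaction with at least 1 bin centred from 74480000 to 74630000 (mm9). That choice held 1107 of the 3,654,014 interactions in the data. The range holds 30 bins of 5 kb, and 26 of them had a listed interaction at some time point. In order of their RefSeq gene starts from the centromeric to the telomeric end, the genes are Hoxd13, Hoxd12, Hoxd11, Hoxd10, Hoxd9, Hoxd8, Hoxd3, Hoxd4 and Hoxd1. Only starts were ordered, and where the body of each gene lies was not compared. Hoxd13 lies near 74.506 Mb and Hoxd1 near 74.602 Mb, and the other genes were placed by their order alone because no mm9 annotation was used here. An interaction was called inside when both bins lay in the range, centromeric when the partner bin lay at lower coordinates and telomeric when it lay at higher coordinates.

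Hox genes encode transcription factors that give positions along the body axis their identity. In the mouse, Hoxd13 and Hoxd12, at the centromeric end, are known for patterning the digits and genitalia, and Hoxd11 also for the forearm. Hoxd10 is known for lumbar spinal cord and hindlimb innervation, Hoxd9 and Hoxd8 for trunk and limb, Hoxd3 and Hoxd4 for the neck vertebrae, and Hoxd1 for sensory neurons. The cluster sits between a centromeric and a telomeric gene-poor region, and both hold distant enhancers of Hoxd genes in limbs. Genes at the Hoxd1 end are typically activated earlier by retinoic acid than genes at the Hoxd13 end.

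Contacts were measured by Hi-C, which ligates neighbouring DNA ends in crosslinked chromatin and sequences the junctions. The cells were P19, a mouse embryonal carcinoma line that can differentiate towards neurons and was grown as a monolayer on gelatine. The 3 groups of 2 libraries were untreated cells (T0), cells treated with ATRA, all-trans retinoic acid, at 1e-06 M for 6 h (T6), and cells kept in the same dose for 48 h (T48). No untreated cells of 6 h or 48 h were in the series, so ATRA and time in culture cannot be told apart. All groups are the same line, and separate cultures are not stated for the replicates, so p-values measure the spread between these libraries, which may be technical.

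The promoters of the 2 landmark genes, at both ends of the cluster, and of Hoxd4 are shown. Of the 9 genes, Hoxd4 has the RefSeq start nearest to that of Hoxd1, and its promoter holds 1 copy of the motif AGGTCA. The sequences are RefSeq's, from 250 bases before to 50 after the gene start on the plus strand of GRCm38.p6. That build is not the one of the contacts, and its positions were not converted. Capitals mark the motif AGGTCA on either strand, the core of retinoic acid receptor sites. Whether a receptor binds at a single copy was not tested.
Hoxd13, chr2:74667975-74668274: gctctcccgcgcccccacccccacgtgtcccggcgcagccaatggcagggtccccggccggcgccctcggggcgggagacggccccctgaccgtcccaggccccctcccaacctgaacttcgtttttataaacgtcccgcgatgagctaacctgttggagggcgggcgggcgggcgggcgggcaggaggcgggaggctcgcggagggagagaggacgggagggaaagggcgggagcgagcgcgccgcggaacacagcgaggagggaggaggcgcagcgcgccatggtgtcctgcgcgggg
Hoxd4, chr2:74721728-74722027: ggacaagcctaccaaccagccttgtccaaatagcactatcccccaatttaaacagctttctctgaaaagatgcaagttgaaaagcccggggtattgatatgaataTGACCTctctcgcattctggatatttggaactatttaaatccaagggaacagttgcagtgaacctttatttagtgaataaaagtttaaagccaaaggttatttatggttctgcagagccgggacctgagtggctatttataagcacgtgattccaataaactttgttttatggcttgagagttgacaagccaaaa
Hoxd1, chr2:74762730-74763029: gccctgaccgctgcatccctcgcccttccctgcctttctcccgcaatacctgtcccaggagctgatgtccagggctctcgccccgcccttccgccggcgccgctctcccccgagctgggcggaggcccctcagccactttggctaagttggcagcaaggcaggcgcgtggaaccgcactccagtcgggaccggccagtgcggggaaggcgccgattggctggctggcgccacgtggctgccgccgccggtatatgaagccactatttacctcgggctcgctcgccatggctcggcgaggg
The landmark promoters were rich in G and C, with 74.3% in Hoxd13 and 69.7% in Hoxd1, against 39.7% in Hoxd4. The motif was found in 4 of the 10 promoters listed for the 9 genes (Hoxd10, Hoxd8, Hoxd3 and Hoxd4; Hoxd11 has 2 promoters), and 16.3% of all 32,851 mouse promoters of that length hold it. The spaced repeat AGGTCANNNNNAGGTCA, which contains the first motif, was in 0 of the 10 and in 0.00913% of all promoters, searched on both strands.

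The deposited table gives raw counts of read pairs for bin pairs, restricted by the authors to significant ones seen in both libraries of a time point. A 0 therefore marks a pair that was not listed at that time, not a measured absence of contact. HoxD counts summed to 6676 and 4417 in the T0 libraries, 5663 and 3602 in those of T6, then 7223 and 5264 in those of T48. Counts of the whole series summed to between 23,003,295 and 50,154,643 per library, and replicate 2 was the smaller in every group. The median count of a listed HoxD pair was between 22 and 46 inside the cluster, between 4 and 6 on the centromeric side and between 4.5 and 7 on the telomeric side over the 6 libraries. Counts were not corrected here for the coverage of a bin, so a change in coverage and a change in contact cannot be told apart.

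The cluster was divided between the 2 sides at 1 place, which was the same at all 3 time points. Bins up to position 74520000 had mainly centromeric partners, and bins from 74520001 on had mainly telomeric partners. The dividing line lies between the bins centred 10 kb and 15 kb beyond the Hoxd13 landmark bin, and it leaves 8 bins on the Hoxd13 side and 22 on the Hoxd1 side. On the Hoxd13 side, 138 centromeric and 6 telomeric interactions were listed at T0, 124 and 8 at T6, and at T48 181 and 17. On the Hoxd1 side, 2 centromeric and 313 telomeric interactions were listed at T0, 6 and 296 at T6, then 8 and 394 at T48. Bins in mid-cluster thus shared their side with Hoxd1 and not with Hoxd13. Among counts that left the cluster from the Hoxd13 side, the telomeric share stood at 2.24% and 2.55% in the T0 libraries, 3.50% and 4.01% in those of T6, then 5.49% and 6.32% in those of T48. The 3 groups did not overlap in this share, which was highest at T48, and such separation was not counted over other windows. The 2 bins nearest the line on that side, centred at 74517500 and 74512500, held most of its telomeric interactions at T48. They listed 1 and 3 at T0, 2 and 2 at T6, and at T48 9 and 6, so the T48 value is mainly one of these bins. From the Hoxd1 side, the telomeric share was between 98.7% and 99.8% in all 6 libraries. The place was chosen as the one with the fewest interactions on the minority side, so the split itself carries no test. When pairs had to reach 1.5 times the lowest count listed for their distance, the line was at 74520001 at T0 and 1 bin nearer to Hoxd13, at 74515001, at T6 and T48.

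At T0, the segments on either side of the cluster's midpoint differed more in side than those of most windows of the same length. This cut is not the dividing line above, whose sharpness was not compared with other windows. Between the Hoxd1 segment and the Hoxd13 segment, cut at the midpoint 74554000, the share of partners at higher coordinates differed by 43.0 percentage points. It was 99.3% in the Hoxd1 segment and 56.3% in the Hoxd13 segment, which spans the dividing line. Over 15,083 windows of 150 kb with at least 20 interactions in each segment, the median difference was 16.7 points, with quartiles of 3.89 and 36.5. HoxD thus lay above the upper quartile, which is a description with no test.

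**Figure D1:**
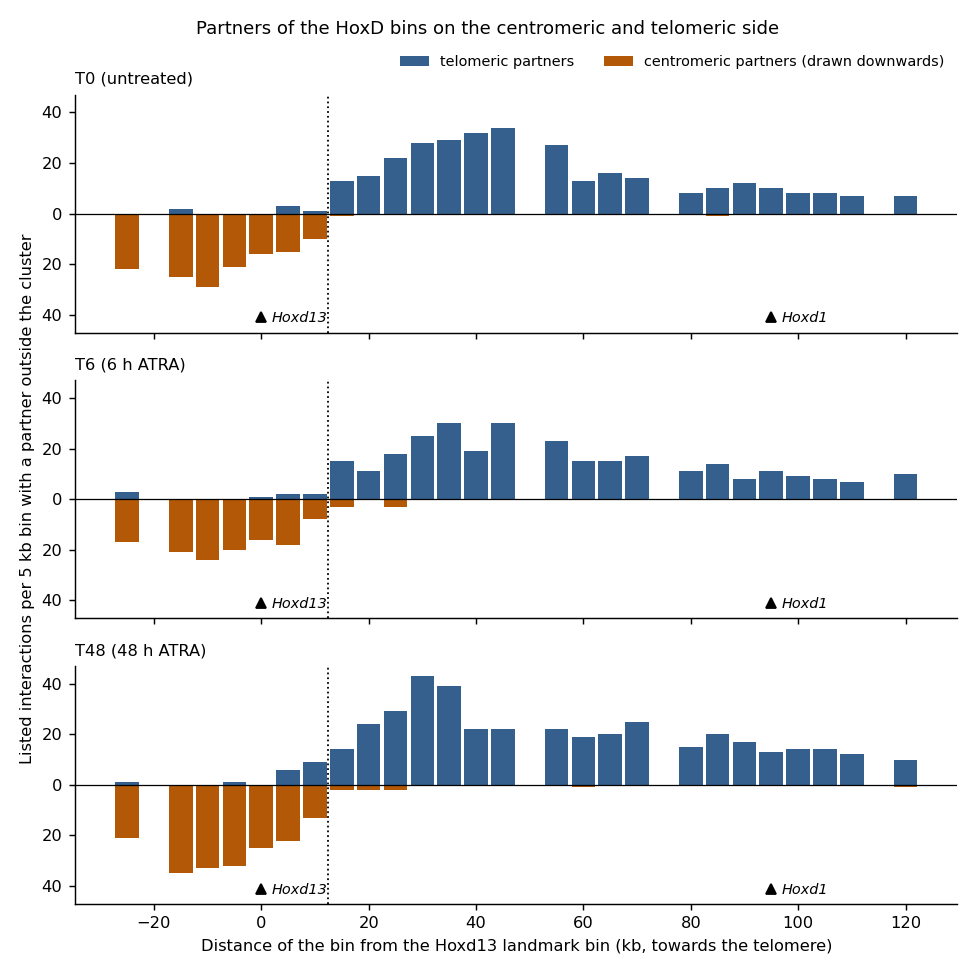
Number of listed interactions of each 5 kb bin of the HoxD range with a telomeric partner (bars up) and a centromeric partner (bars down), by distance from the Hoxd13 landmark bin in kb, at T0, T6 and T48; triangles mark the landmark bins and the dotted line the change of side. Most bars point down left of the line and up right of it at all 3 time points, with 6, 8 and 17 telomeric interactions on the left and 2, 6 and 8 centromeric ones on the right at T0, T6 and T48.

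Individual bins showed where contacts concentrated. The Hoxd13 landmark bin, centred at 74507500, had 16 centromeric interactions at T0, 16 at T6, then 25 at T48, and 0, 1 and 0 telomeric ones. The Hoxd1 landmark bin, centred at 74602500, had 10, 11 and 13 telomeric interactions at T0, T6 and T48 and no centromeric one listed. The 2 ends of the cluster thus listed partners on opposite sides. The bin with most interactions over the 3 time points was centred at 74537500, with 33 at T0, 29 at T6, then 45 at T48. The next was 74542500, with 30, 31 and 41, of which 29, 30 and 39 were telomeric. The third was 74497500, on the far side of Hoxd13, with 34, 27 and 37, of which 29, 24 and 33 were centromeric. The bins richest in partners therefore lay on both sides of the dividing line and not at the landmark genes. The bins centred at 74487500, 74557500, 74582500 and 74622500 had no listed interaction at any time point, and whether reads map there was not tested.

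Partners on the telomeric side were concentrated in the windows up to one centred 345 kb beyond the edge of the range. The 50 kb window from 74950001 to 75000000 held 77 HoxD interactions at T0, 77 at T6, then 92 at T48. It was contacted from 21 of the 26 HoxD bins with a listed pair, and 44 of its interactions were listed at all 3 time points. In CPM, here scaled to the library's listed total, it had 15.9 and 16.7 at T0, 17.1 and 20.997 at T6, and at T48 20.1 and 18.7. Its T48 libraries lay above its T0 libraries, while T6 overlapped T48. The window from 74900001 to 74950000 held 29, 42 and 46 interactions at T0, T6 and T48. Its CPM were 3.63 and 4.39 at T0, 6.39 and 7.13 at T6, then 6.74 and 7.31 at T48, so both treated groups lay above T0 and overlapped each other. The window from 74850001 to 74900000 held 39, 34 and 44 interactions. These 3 windows together held 46.4% of all telomeric listings over the 3 time points, out of 23 windows with any. A farther window, from 75400001 to 75450000, was singled out after its values were seen. It held 24, 15 and 32 interactions, with 2.69 and 3.31 CPM at T0, 2.17 and 2.09 at T6, and at T48 4.67 and 5.92. The T6 libraries were the lowest there and the T48 libraries the highest, with no overlap between groups.

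Centromeric partners lay farther away and were spread over more windows. The window from 73850001 to 73900000 held 25 interactions at T0, 17 at T6, then 27 at T48, and the neighbouring one from 73800001 to 73850000 held 24, 18 and 26. The window from 74100001 to 74150000 held 14, 17 and 23. These 3 windows held 41.6% of the centromeric listings, out of 29 windows with any. The last of them had 2.39 and 2.09 CPM at T0, 2.54 and 2.91 at T6, then 4.37 and 3.86 at T48, and its 3 groups did not overlap. The windows that flank the first pair, singled out after their values were seen, listed more partners at T48 than before. From 73750001 to 73800000 there were 12 interactions at T0, 13 at T6, then 25 at T48, and from 73900001 to 73950000 there were 12, 14 and 24. Windows nearer to the cluster, also singled out after their values were seen, listed fewer at T48. From 74350001 to 74400000 there were 6 interactions at T0, 2 at T6, then 1 at T48, and from 74400001 to 74450000 there were 7, 5 and 4. The median distance of a centromeric pair was 620 kb at T0, 632.5 kb at T6 and 620 kb at T48, against 375 kb on the telomeric side at each time point.

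**Figure D2:**
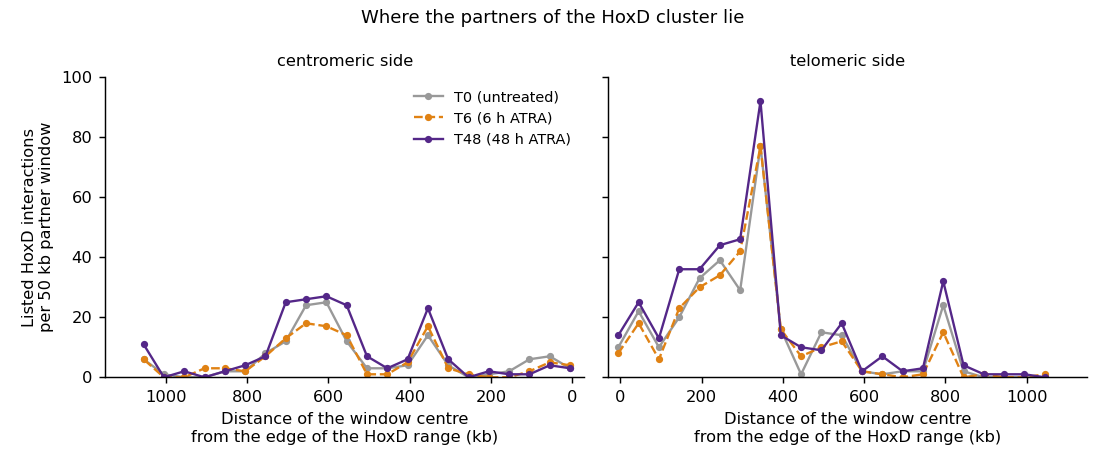
Number of listed HoxD interactions per 50 kb partner window, by distance of the window's centre from the nearer edge of the HoxD range in kb, on the centromeric side (left panel, distance falls to the right) and the telomeric side (right panel), at T0, T6 and T48; the few farther windows are not drawn. The highest point of each line is the telomeric window with 77, 77 and 92 interactions, and the centromeric partners form a broad group and a narrow nearer one.

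HoxD contacts of 300 to 1000 kb on both sides were listed again at T6 and at T48 in larger shares than pairs of the same length in the whole series. Of the T0 telomeric pairs of 300 to 500 kb, 59.6% were also listed at T48 and 39.7% at all 3 time points, against 19.7% and 9.42% of the series' T0 pairs of that length. Of the centromeric T0 pairs of 500 to 1000 kb, 44.3% were also listed at T48 and 22.7% at all 3 time points, against 13.3% and 5.11% in the series. Other lengths did not all share this order. Of the 8 centromeric T0 pairs of 1000 to 2000 kb, 0% were listed again at T6 or T48, against 7.52% and 8.21% in the series. Of the 10 centromeric T0 pairs of 100 to 300 kb, 20% were also listed at T6 and 0% at T48, against 28.1% and 26.8%. Inside the cluster, of the 19 T0 pairs of 20 to 100 kb, 47.4% were also listed at T6 and 26.3% at T48, against 38.5% and 35.5% in the series, so the inside share was above the series at T6 and below it at T48. Over all 1107 HoxD interactions, 148 (13.4%) were listed at all 3 time points, beside 14.9% in the series. A further 217 were listed at T0 alone, 181 at T6 alone and 314 at T48 alone, 62 at T0 and T6, 94 at T0 and T48, and 91 at T6 and T48. Listings have no replicate error, so these shares were not tested.

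More HoxD interactions were listed at T48 than at T0 on both sides, and fewer inside. The inside list held 62 pairs at T0, 48 at T6, then 47 at T48. The centromeric list held 140, 130 and 189 pairs, and the telomeric list 319, 304 and 411. The T48 number over the T0 number was thus 0.758 inside, 1.35 on the centromeric side and 1.29 on the telomeric side. The series' own lists changed by 0.949, 1.13 and 1.01 over pairs of the same distances as those of each HoxD class. Across 150 kb windows with at least 20 such interactions at T0, the median T48 over T0 ratio was 0.930 inside (quartiles 0.826 and 1.05, 15,470 windows), 0.963 at lower coordinates (0.790 and 1.17, 14,634 windows) and 0.962 at higher coordinates (0.784 and 1.17, 14,574 windows). HoxD lay outside the quartiles in all 3 classes. At T6 the T6 over T0 ratios were 0.774, 0.929 and 0.953 for inside, centromeric and telomeric pairs, against 0.861, 0.791 and 0.827 at the same distances in the series. Of inside pairs that reached 1.5 times the lowest listed count, there were 20 at T0, 14 at T6, then 20 at T48.

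In counts, the inside level hardly differed between T48 and T0 while both sides were higher. Inside pairs had 55.7 and 57.9 CPM at T48, against 58.2 and 61.1 at T0. Centromeric pairs had 33.0 and 37.0 at T48, against 21.8 and 27.3 at T0. Telomeric pairs had 77.3 and 83.2 at T48, against 53.1 and 60.6 at T0. The T48 mean over the T0 mean was 0.952 inside, 1.43 centromeric and 1.41 telomeric, and the T48 and T0 values of each class did not overlap. Such separation was not counted over other windows, here or for other values in this report, so it is not shown to be particular to HoxD. With unlisted pairs entered as 0, edgeR called 36.6% of all 50,365 sums in T48 over T0. At T6 the values were 56.2 and 55.8 inside, 22.3 and 29.1 centromeric and 61.1 and 71.7 telomeric, so T6 overlapped T0 on the centromeric side. These sums count pairs that enter and leave the list.

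Shares of the HoxD count need no scaling to library size. Inside pairs held 43.7% and 41.0% at T0, 40.2% and 35.6% at T6, and at T48 33.6% and 32.5%. Telomeric pairs held 39.9% and 40.7% at T0, 43.8% and 45.8% at T6, then 46.5% and 46.7% at T48. Centromeric pairs held 16.4% and 18.3% at T0, 16.0% and 18.6% at T6, and at T48 19.9% and 20.8%. In every group replicate 2, the smaller library, had the lower inside share and the higher centromeric share, and whether shares follow depth was not tested. The inside share averaged 33.0% ± 0.733 at T48 and 42.4% ± 1.92 at T0 (SD, n = 2 each; exact permutation p = 0.333). The telomeric share averaged 46.6% ± 0.105 at T48 and 40.3% ± 0.583 at T0 (SD, n = 2 each; exact permutation p = 0.333), and the centromeric share 20.3% ± 0.628 and 17.3% ± 1.34 in the same order (exact permutation p = 0.333). With 2 libraries a group, 0.333 is the smallest p this test can give, so no share could pass 0.05, and over the 21 share differences computed the Benjamini-Hochberg adjusted value was 0.368. Within replicate 1 and within replicate 2, the T48 minus T0 difference was -10.2 and -8.50 points inside, 3.49 and 2.49 centromeric and 6.69 and 6.01 telomeric. Over the 148 interactions listed at all 3 time points, the T48 minus T0 difference was -1.94 points inside, -0.09 telomeric and 2.03 centromeric. The inside and telomeric differences were thus smaller among shared pairs than over all pairs. The centromeric difference was 2.99 points over all pairs. The 2 sets have different totals, so the shared value is not a part of that one. Shared centromeric pairs held 339 and 228 read pairs at T0 and 387 and 307 at T48. All centromeric pairs held 1095 and 808 at T0 and 1437 and 1094 at T48, so most of that count lay in pairs not shared.

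**Figure D3:**
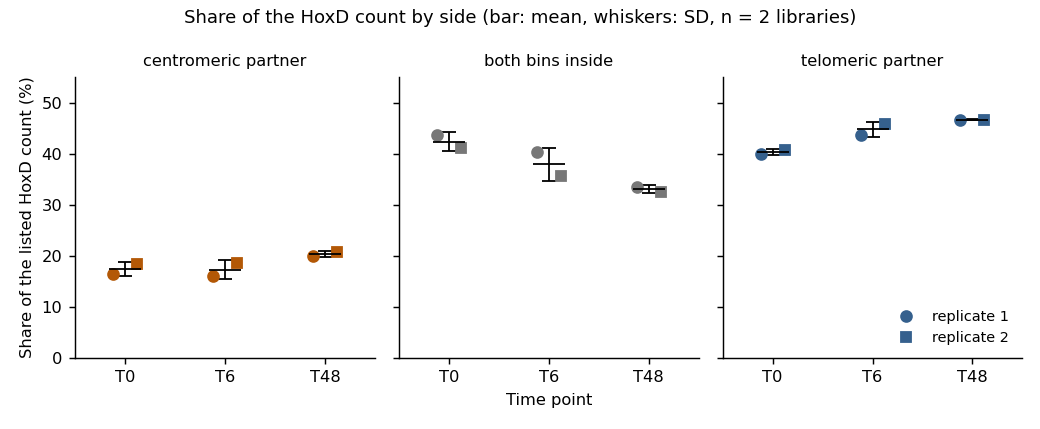
Share of each library's listed HoxD count (%, vertical axis) held by centromeric, inside and telomeric pairs at T0, T6 and T48; circles are replicate 1, squares replicate 2, bars the mean and whiskers the SD of 2 libraries. Both T48 libraries lie below both T0 libraries for inside pairs (33.6% and 32.5% against 43.7% and 41.0%) and above them on both sides.

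Counts of the pairs shared by all 3 lists were compared with edgeR, summed per 150 kb window and class and fitted with all windows of the genome. The HoxD sums held 28 inside, 26 centromeric and 94 telomeric interactions. None of the 3 HoxD sums was called in any comparison. For T48 over T0, edgeR called 0 of the 3 sums, and 0.0118% of 42,287 sums (5) were called in all. For T6 over T0 it called 0 of the 3 and 0% of all, and for T48 over T6 again 0 of the 3 and 0% of all. At an unadjusted p under 0.05, 1 of the 3 HoxD sums passed in T48 over T0 (3787 of all sums), 0 in T6 over T0 (869) and 0 in T48 over T6 (3112), and DESeq2 called 0 of the 3 in each, beside 0.234%, 0.0142% and 0.13% of all sums in the same order. When edgeR blocked on the replicate number, it again called 0 of the 3 in each, beside 0.754%, 0.00946% and 0.376% of all sums.

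The centromeric sum was the one with the largest difference. It had 10.6 and 12.4 CPM, here scaled by TMM over shared pairs, at T0, 10.7 and 12.8 at T6, then 13.6 and 16.2 at T48. T48 lay above both other groups, which overlapped. Its T48 over T0 log2 difference was 0.38 ± 0.15 (SE; edgeR unadjusted p = 0.045, adjusted p = 0.55), beside a median of -0.01 over all sums of that side. Within replicates 1 and 2 the difference was 0.37 and 0.39. It was 0.25 without T48 replicate 2 and 0.08 when the range was narrowed to the bins from Hoxd13 to Hoxd1. Narrowing drops the bins on the far side of Hoxd13 and classes their pairs with kept bins as centromeric. One of these, 74497500 with 74512500, had 34 and 18 read pairs at T0 and 33 and 19 at T48. The 0.08 thus does not show which bins held the difference. The telomeric sum had 31.3 and 33.3 CPM at T0, 31.5 and 37.8 at T6, and at T48 34.5 and 36.3. Its T48 over T0 log2 difference was 0.13 ± 0.10 (SE, edgeR adjusted p = 0.75). The inside sum had 58.1 and 60.01 CPM at T0, 60.7 and 62.6 at T6, then 61.6 and 64.0 at T48, with a T48 over T0 log2 difference of 0.09 ± 0.05 (SE, edgeR adjusted p = 0.63). When unlisted pairs were entered as 0, edgeR called the HoxD centromeric sum (log2 0.50, adjusted p = 0.033) and telomeric sum (log2 0.49, adjusted p = 0.0068) in T48 over T0, together with 18,417 of 50,365 sums (36.6%). It also called both in T48 over T6 (log2 0.44 and 0.26, adjusted p = 0.0497 and 0.0484), together with 36.7% of all sums. In that setting a pair listed at 1 time point and not at another counts as a difference.

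For single pairs, 76 of the 148 HoxD interactions listed at all 3 time points passed the filter on low counts: all 28 inside, 7 of 26 centromeric and 41 of 94 telomeric. In T48 over T0, edgeR called 0 of the 76, against 0% of 496,203 tested interactions, and 10 of the 76 had an unadjusted p under 0.05 (27,390 of all). In T6 over T0 it called 0 of the 76, against 0%, with 6 under 0.05 (15,733 of all), and in T48 over T6 0 of the 76, against 0%, with 4 under 0.05 (25,105 of all). DESeq2 called 0 of the 76 in each comparison, beside 0.0143%, 0.000202% and 0.0127% of all interactions in the same order. The median log2 difference of the 76 was 0.22 in T48 over T0, 0.09 in T6 over T0 and 0.08 in T48 over T6, beside 0.0010, -0.0016 and 0.0016 over all interactions. In T48 over T0, the median was 0.52 for the 7 centromeric pairs, 0.27 for the 41 telomeric and 0.08 for the 28 inside pairs.

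The lowest p in T48 over T0 belonged to a telomeric pair that joins the bin at 74527500, early past the dividing line, to 74987500, in the most contacted window. It had 4 and 4 read pairs at T0, 12 and 8 at T6, and at T48 12 and 18. Its T48 over T0 log2 difference was 1.99 ± 0.53 (SE, edgeR unadjusted p = 0.0060, adjusted p = 0.80), and both T48 libraries lay above both T0 libraries. The next was a centromeric pair of 695 kb between 73802500 and 74497500, with 11 and 4 read pairs at T0, 9 and 6 at T6, then 22 and 10 at T48. Its T48 over T0 log2 difference was 1.19 ± 0.34 (SE, edgeR adjusted p = 0.82), and it also had the lowest p in T48 over T6 (log2 1.02 ± 0.34, adjusted p = 0.95). Its read counts in the 2 groups overlapped before scaling to library size. The third ran the other way: the telomeric pair of 74552500 and 74807500 had 21 and 11 read pairs at T0, 15 and 10 at T6, and at T48 6 and 8 (T48 over T0 log2 difference -1.06 ± 0.35, SE, edgeR adjusted p = 0.86). Its anchor bin lies at the midpoint of the cluster.

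In T6 over T0, the 3 pairs with the lowest p were lower at T6. The centromeric pair of 74137500 and 74502500 had 5 and 4 read pairs at T6 and 17 and 9 at T0 (log2 -1.33 ± 0.48, SE, edgeR adjusted p = 1.00). The telomeric pair of 74552500 and 74797500 had 12 and 5 at T6 and 21 and 18 at T0, and that of 74562500 and 74797500 had 7 and 6 at T6 and 20 and 9 at T0. Both of the last 2 came from mid-cluster bins and shared a partner bin. In T48 over T6, the pairs after the lowest were 74577500 with 74802500 (16 and 16 read pairs at T48, 8 and 7 at T6) and 74137500 with 74497500 (17 and 12 at T48, 8 and 6 at T6), with edgeR adjusted p of 0.97 and 0.98.

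The longest of the 148 interactions listed at all 3 time points were sparse, and none of the 3 longest on either side passed the filter on low counts. On the telomeric side, the pair of 74522500, the first bin past the dividing line, and 75432500 spanned 910 kb, with 8 and 3 read pairs at T0, 4 and 3 at T6, then 5 and 3 at T48. The bin next to it, 74527500, was joined to 75432500 over 905 kb, with 8 and 3 at T0, 7 and 3 at T6, and at T48 10 and 5. It was also joined to 75422500 over 895 kb, with 6 and 3, 8 and 3, and 9 and 3 read pairs at T0, T6 and T48. All 3 ended in the far window from 75400001 to 75450000, which held 8 interactions listed at all 3 time points. On the centromeric side, the longest joined 73737500 and 74502500 over 765 kb, with 8 and 3 read pairs at T0, 4 and 3 at T6, then 4 and 3 at T48. The next joined 73757500 and 74517500 over 760 kb, with 3 and 3, 4 and 4, and 5 and 4. The third joined 73762500 to the Hoxd13 landmark bin, 74507500, over 745 kb, with 8 and 3, 5 and 3, and 3 and 5. Read counts of T48 and T0 overlapped in each of these pairs except the one of 760 kb, and none of them was tested.

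Among interactions listed at all 3 time points, the strongest telomeric ones of at least 20 kb joined mid-cluster bins to the window most contacted. The pair of 74542500 and 74987500 had 48 and 8 read pairs at T0, 27 and 12 at T6, then 29 and 14 at T48, so the T0 replicates enclosed both other groups. The pair of 74552500 and 74977500 had 19 and 17, 19 and 21, and 9 and 11 read pairs at T0, T6 and T48, and that of 74542500 and 74982500 had 24 and 14, 20 and 17, and 16 and 8. The T48 over T0 log2 differences of the 3 were -0.24, -0.73 and -0.55, with edgeR adjusted p of 1.00, 0.96 and 0.95. The strongest centromeric one, between 74422500 and 74482500, had 17 and 17 read pairs at T0, 26 and 8 at T6, and at T48 12 and 12. Inside, only 2 interactions of 20 kb or more were listed at all 3 time points. They joined 74497500 and 74517500, on the Hoxd13 side of the dividing line, and 74597500 and 74617500, around Hoxd1. The first of these had 31 and 16, 26 and 16, and 22 and 17 read pairs, and the second 22 and 14, 23 and 16, and 28 and 14 at T0, T6 and T48.

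Inside the cluster, listed contacts were short. The median distance was 10 kb at every time point, and the longest listed pair spanned 60 kb at T0, 50 kb at T6 and 30 kb at T48. No pair that joined the landmark bins of Hoxd13 and Hoxd1, at opposite ends, was listed. At 25 kb there were 6 pairs at T0, 6 at T6, then 2 at T48, and beyond 30 kb there were 6 at T0, 4 at T6, then 0 at T48. At 5 kb there were 19, 14 and 18. The T48 list was therefore shorter in reach, while its adjacent bins were listed about as often as at T0. The whole series went the same way at 20 to 100 kb, where its T48 over T0 number was 0.823, against 0.474 inside HoxD. At 5 to 20 kb the numbers were 1.01 in the series and 0.884 inside HoxD. Counts of unlisted pairs are not known, and at 35 kb or more the T0 and T6 pairs that were listed had between 8 and 20 read pairs each.

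**Figure D4:**
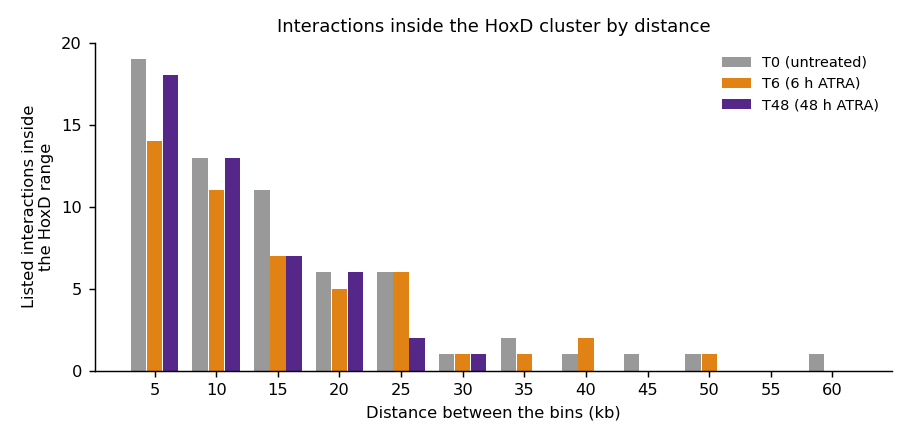
Number of listed interactions inside the HoxD range by distance between the bins (kb) at T0, T6 and T48. Bars at 5 kb stand at 19, 14 and 18, and no T48 bar is present beyond 30 kb.

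Contacts between the Hoxd13 segment and the Hoxd1 segment were almost absent from the lists at T0 and T6 and present at T48. Between the segments, cut at the midpoint 74554000, 1 pair was listed at T0, 1 at T6, then 4 at T48. All 4 T48 pairs were short and bridged the midpoint. They joined 74552500 to 74562500 (39 and 38 read pairs), 74552500 to 74567500 (44 and 36), 74547500 to 74567500 (30 and 16) and 74552500 to 74572500 (21 and 17). None of them was listed at T0 or T6, where the lowest counts listed at 10 kb were 29 and 21 at T0 and 30 and 19 at T6. At 15 kb those lowest counts were 27 and 16 at T0 and 25 and 15 at T6, and at 20 kb 22 and 13 at T0 and 20 and 12 at T6. The counts of the 4 pairs at T0 and T6 are not known. Between the segments lay 0.342% and 0.607% of the inside count at T0, 0.658% and 0.701% at T6, then 5.53% and 6.25% at T48. The T48 and T0 groups did not overlap (5.89% ± 0.510 and 0.475% ± 0.187, SD, n = 2 each; exact permutation p = 0.333).

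Within the Hoxd13 segment lay 46.3% and 48.7% of the inside count at T0, 43.1% and 43.2% at T6, and at T48 39.0% and 38.7%. The segment listed 27 pairs at T0, 18 at T6, then 18 at T48. The Hoxd1 segment listed 34, 29 and 25, so both segments listed fewer pairs at T48 than at T0. Within the Hoxd1 segment lay 53.3% and 50.7% at T0, 56.2% and 56.1% at T6, then 55.4% and 55.02% at T48. The Hoxd13 share was lower and the Hoxd1 share higher at T48 than at T0 without overlap (exact permutation p = 0.333 for each). Across the dividing line of the outside partners, 10 inside pairs were listed at T0, 6 at T6, then 4 at T48. Inside pairs that stayed on the Hoxd13 side of the line numbered 11, 6 and 9. Those that stayed on the Hoxd1 side numbered 41, 36 and 34, so each class listed fewer at T6 and T48 than at T0.

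The telomeric contacts of the cluster were also redistributed along it in the lists. The 3 groups of bins used here were chosen after their values were seen, so their values are a description. The 5 bins around the midpoint, from 74540001 to 74565000, listed 122 telomeric interactions at T0, 102 at T6, then 105 at T48. Only 4 of them had a listed pair, and these did not move together. The bin at 74542500 listed 29, 30 and 39 at T0, T6 and T48. In contrast, 74547500 listed 32, 19 and 22, 74552500 listed 34, 30 and 22, and 74562500 listed 27, 23 and 22. Of the telomeric count the 5 bins held 41.1% and 41.2% at T0, 37.0% and 36.9% at T6, and at T48 25.8% and 24.8%. The remaining 13 bins towards and beyond Hoxd1, up to 74630000, of which 11 had a listed pair, listed 113, 125 and 179. They held 35.8% and 35.8% at T0, 41.8% and 42.1% at T6, then 46.6% and 47.7% at T48. The first 4 bins past the dividing line listed 78, 69 and 110, and held between 19.3% and 25.2% in all libraries. Replicates of a group lay closer to each other than to either other group, and T6 lay between T0 and T48 around the midpoint and towards Hoxd1. Over pairs listed at all 3 time points, the bins around the midpoint held 47.5% and 47.4% at T0, 47.1% and 50.4% at T6, and at T48 39.1% and 39.4%, and the bins towards and beyond Hoxd1 18.5% and 18.4%, 18.4% and 18.03%, and 18.9% and 22.7%. The first 4 bins past the dividing line held 33.5% and 33.7%, 33.8% and 31.1%, and 41.2% and 37.0% of these shared pairs' counts at T0, T6 and T48. In shared pairs the share around the midpoint was thus lower at T48 too, and the higher share at T48 lay mainly in the first 4 bins and less near Hoxd1, where replicate 1 was at 18.9% and replicate 2 at 22.7%.

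**Figure D5:**
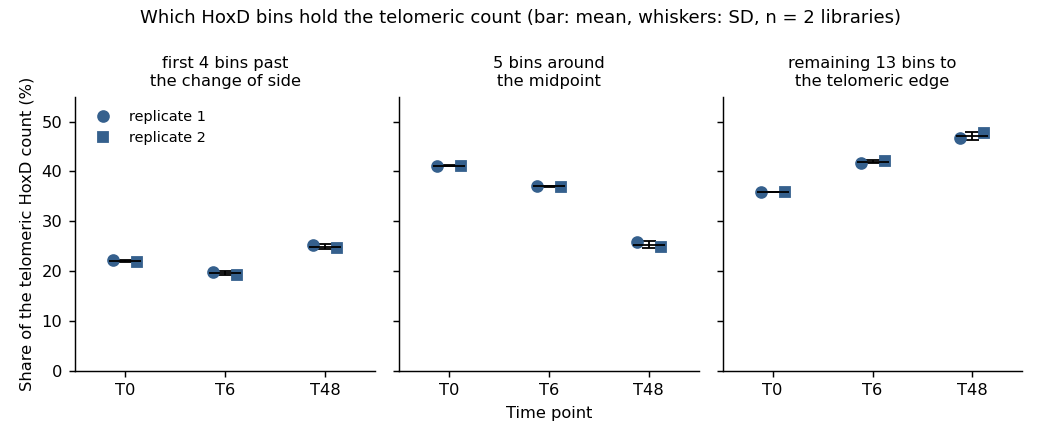
Share of each library's telomeric HoxD count (%, vertical axis) held by the first 4 bins past the change of side, the 5 bins around the midpoint and the remaining 13 bins, at T0, T6 and T48; circles are replicate 1, squares replicate 2, bars the mean and whiskers the SD of 2 libraries. The bins around the midpoint stand at 25.8% and 24.8% at T48, against 41.1% and 41.2% at T0, and the remaining bins at 46.6% and 47.7% at T48, against 35.8% and 35.8% at T0.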

How the data were processed

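Hi-C was done on P19 cells in 6 libraries, 2 at each of T0, T6 and T48, and groups and replicate numbers came from the titles. Per the file headers, the authors deposited 1 table of raw read counts per library for pairs of 5 kb bins. The build was mm9 and the tools included CASAVA 1.8.2 and Bowtie2, per the submitters' processing notes. The sources used here do not give the caller, its threshold, the restriction enzyme or any coverage correction. Both replicates of a time point have a count above 0 or 0 together, the lowest listed HoxD count is 3, and the 4 mitochondrial pairs were left out. Reads carry no molecular identifiers.

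Pairs were read out by the range given for the cluster and classed by side. The members, classes and rules were chosen with earlier results of these data known. Pairs named in the text are the 3 of lowest p per comparison, the 3 longest per side and the up to 3 of highest CPM at 20 kb or more per class, with the 3 richest bins and, per side, the 3 richest 50 kb windows. Counts of pairs shared by all 3 lists, and their sums per 150 kb window and class, were tested across the genome with edgeR 4.0.16 in R 4.3.3 (TMM, filterByExpr, quasi-likelihood F test, 2-sided, Benjamini-Hochberg at 0.05, all 6 libraries in 1 fit). Shares were compared by exact permutation over libraries with SciPy 1.17.1. The standard error of a log2 difference was its size over the root of F. Alternatives were DESeq2 1.42.0, its size factors, no filter, a replicate block, leaving out each library, all listed pairs with 0 where unlisted, pairs of at least 20 kb, the narrower range from the Hoxd13 to the Hoxd1 bin (100 kb), a stricter list and, chosen after seeing the data, an offset by distance. In the narrower range, pairs between a dropped bin and a kept one were classed as outside, so its classes hold other pairs than the main ones. Both fits were tested on simulated data, with changes placed at T48 in features at or above the median count. The fit of sums recovered 42% of 1.5-fold and 96% of 2-fold changes in T48 over T0. The fit of single interactions recovered 0% of 1.5-fold, 8% of 2-fold and 92% of 4-fold changes. Simulated libraries of the same number shared no deviation, and changes in features below the median count were not tried. Recovery in sparse HoxD pairs is thus not known from it. The pair of 74527500 and 74987500, with a T48 over T0 log2 difference of 1.99, was not called. Where a fit called 0, differences may thus have been missed, in sparse pairs also large ones. RefSeq tables of GRCm38.p6 gave the order of gene starts and the promoters. Depth limits single pairs most, since outside pairs had medians of 4 to 7 reads.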

Additional observations from a re-analysis of the deposited data

How the results depend on the processing

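The number of called HoxD interactions was 0 in every comparison under each alternative run: DESeq2, its size factors, no filter, replicate block, offset by distance and leaving out each library. The direction of the T48 over T0 sums was the same under these alternatives on each side, with leave-one-out ranges of 0.06 to 0.12 inside, 0.25 to 0.51 centromeric and 0.09 to 0.18 telomeric (log2). With a replicate block the T48 over T0 centromeric sum was 0.38 (edgeR adjusted p = 0.084), inside 0.09 (0.29) and telomeric 0.13 (0.32), so no HoxD sum was called, while 319 of all 42,287 sums were, against 5 without the block. The replicate numbers come from the titles with no stated origin. Log2 deviations of same-numbered libraries correlated by 0.65 to 0.74 over 32,903 sums. With all listed pairs, the T48 over T0 sum was called on the centromeric side (0.50) and the telomeric side (0.49) and turned inside (-0.083); T6 over T0 inside turned too (-0.091), and T48 over T6 was called centromeric (0.44) and telomeric (0.26). None of the T6 over T0 or T48 over T6 sums below was called. T6 over T0 centromeric, 0.04, turned with the distance offset (-0.0046), with pairs of at least 20 kb (-0.020), was 0.33 in the narrower range, and turned over left-out libraries (-0.089 to 0.17), as did telomeric over left-out libraries (-0.036 to 0.23). T48 over T6 inside ranged from -0.0014 to 0.054 over left-out libraries and was -0.054 at 20 kb or more. T48 over T6 telomeric ranged from -0.10 to 0.17, with a further turn to -0.0014 without T48 replicate 2, and centromeric was -0.25 in the narrower range. Of shares, in points: over pairs listed at all 3 times, T6 minus T0 was -0.350 inside and 0.601 telomeric, and T48 minus T0 -1.94 and -0.0937, with 2.03 centromeric. At 20 kb or more, T6 minus T0 was -1.46 inside and 2.70 telomeric, and T48 minus T0 -5.74 and 3.49. In the narrower range, T6 minus T0 was 0.205 inside, -1.78 centromeric and 1.58 telomeric, and T48 minus T0 -5.90, 1.54 and 4.37. Of the inside count, over pairs listed at all 3 times, T6 minus T0 was -0.995 in the Hoxd13 segment, 0 between and 0.995 in the Hoxd1 segment, and T48 minus T0 -4.93, 0 and 4.93. At 20 kb or more T6 minus T0 was -9.83, 1.54 and 8.29, and T48 minus T0 -14.5, 20.3 and -5.83. In the narrower range T6 minus T0 was 1.02 between, and T48 minus T0 -12.6 in the Hoxd13 segment and 9.65 between. The T48 over T0 number of inside pairs was 0.474 at 20 kb or more. On the stricter list the centromeric number was 0.517 for T6 over T0 and 2.03 for T48 over T0. The cause of these shifts was not tested. Depth limits single outside pairs, with medians of 4 to 7 reads, and contacts below the caller's threshold are not seen.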
